A study of Homo sapiens with 8 samples.

Results

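Most aldehyde dehydrogenases are enzymes that oxidize aldehydes to carboxylic acids with NAD+ or NADP+ as the acceptor of electrons. They remove aldehydes that arise from alcohols, lipids, amines and amino acids, and some of them make signalling molecules such as retinoic acid. ALDH1A1 and ALDH1A3, which make retinoic acid, are widely used as markers of stem-like cells in breast cancer.

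The 10 members described here are ALDH1A1, ALDH1A3, ALDH1B1, ALDH2, ALDH3A2, ALDH4A1, ALDH6A1, ALDH7A1, ALDH9A1 and ALDH18A1. They were taken by symbol from the 21077 genes of the expression table, and all 10 were found. Expression was measured by RNA-Seq in Hs578T, an established human breast cancer cell line without the estrogen receptor. The cells were kept for 48 hours in low glucose (5 mM, the control condition) or high glucose (25 mM, to mimic hyperglycemia), with 4 libraries per group and 8 in all. According to the methods of the study, both groups were cultured without serum after conditioning in low glucose, and an osmotic control with mannitol was run in some experiments, which is not among these libraries. One cell line was grown, so the values describe Hs578T alone.

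The libraries held an estimated 10244887 to 11956682 counts each. Mesenchymal genes were abundant, with VIM at a mean of 8420 CPM (low glucose) and 3733 CPM (high glucose), and the 6 luminal epithelial markers were low. EPCAM was listed at 0 in all libraries, and GRHL2, PGR, ESR1 (the estrogen receptor) and CDH1 did not exceed 0.0955, 0.200, 0.270 and 0.902 CPM. The mean of ESRP1 was 2.25 CPM for low and 0.505 CPM for high glucose. The endothelial marker CDH5 was listed at 0, whereas the blood marker PTPRC reached 1.08 CPM and the endothelial marker PECAM1 6.21 CPM, both at their highest in high glucose, and their part in the results was not tested. Values are CPM (read counts relative to library size, scaled between libraries by the authors), given as mean ± SD with n = 4 per group. Changes are log2 fold changes of CPM + 1, high minus low glucose, with their standard error (SE) and the adjusted p of limma over all 15570 genes that reached 0.5 CPM in at least 2 libraries. A gene was called changed at an adjusted p below 0.05.

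Among the 10 members, 8 passed the filter on low values, and 7 of these were called: 6 were lower and 1, ALDH3A2, was higher in high glucose. Most genes of these cells moved, since 72.9% of all genes tested were called, 35.7% as higher and 37.2% as lower. The call of 7 in 8 members is therefore near the background. A total of 3 called members, ALDH1A3, ALDH1B1 and ALDH6A1, were at least 2-fold lower, which held for 8.48% of all genes tested. With the columns rescaled to equal totals, ALDH1B1 was at -0.91 and ALDH6A1 at -0.80 on the log2 scale. Both were then less than 2-fold lower, so this count depends on the scaling. The groups did not overlap for 7 of the 8 members, against 66.7% of all genes tested. The median log2 fold change was -0.61 over the 8 members and -0.0003 over all genes tested.

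**Figure D1:**
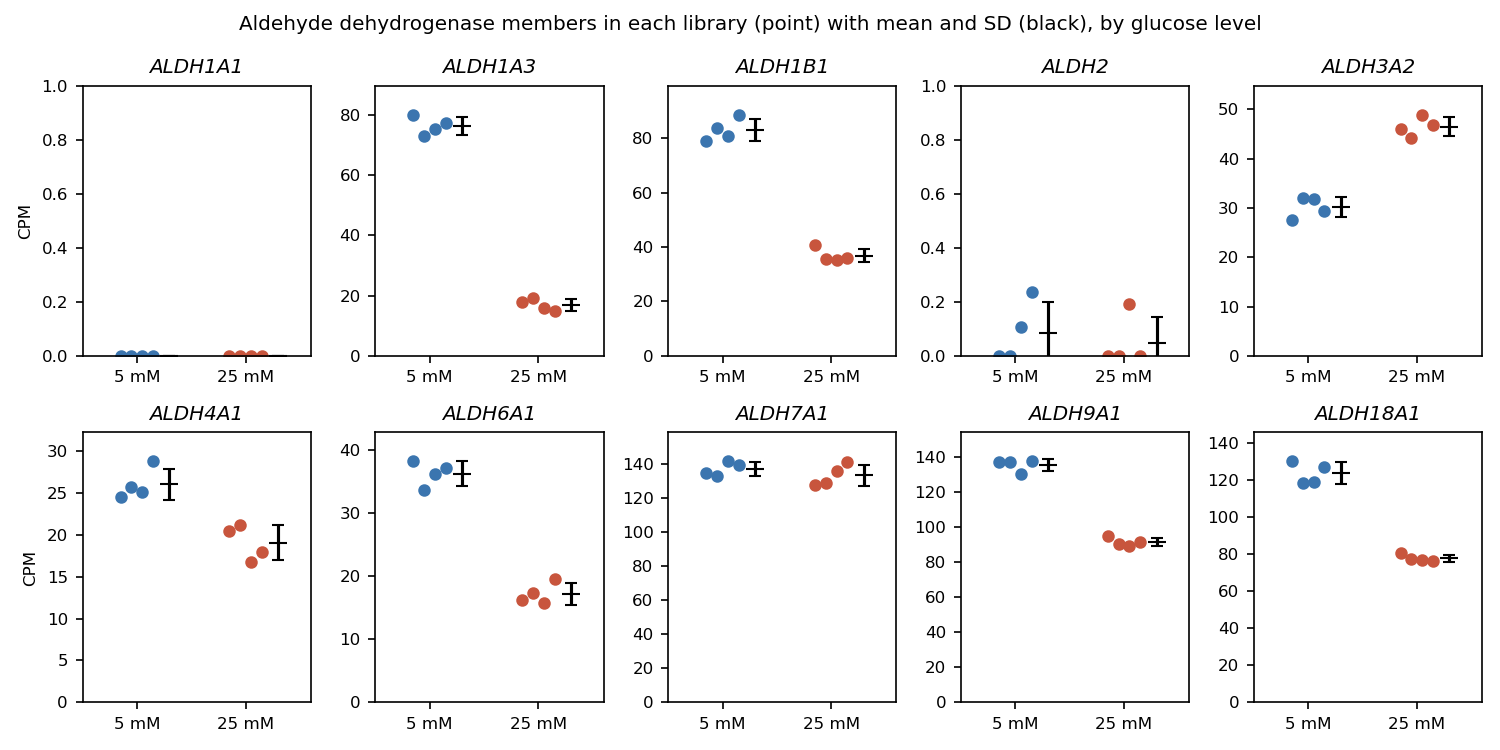
CPM (y axis, linear, from 0) of each of the 10 members in the 4 libraries at 5 mM and the 4 at 25 mM glucose. Each point is a library, and the black mark and bar are the mean and SD of the group. ALDH1A3 falls from 73.1 to 80.0 CPM to 14.8 to 19.3 CPM, ALDH3A2 rises, ALDH7A1 overlaps between groups, and ALDH1A1 and ALDH2 are at or near 0.

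Of the 2 members that make retinoic acid, ALDH1A3 was expressed and lower in high glucose, and ALDH1A1 was listed at 0. ALDH1A3 (ENSG00000184254; chr15:100879831-100916626, GRCh38.p14), which oxidizes retinal to retinoic acid in the cytosol, was at 80.0, 73.1, 75.2 and 77.2 CPM in the libraries of low glucose and at 17.9, 19.3, 16.0 and 14.8 CPM in those of high glucose. Every library of high glucose lay far below every library of low glucose. The mean was 4.49-fold lower in high glucose, 17.0 ± 1.99 against 76.4 ± 2.90 CPM (log2 fold change -2.11, SE 0.0751, 95% interval -2.27 to -1.95, limma adjusted p = 1.45e-12). It was the tested member with the largest change. In such bulk libraries fewer cells that express a gene and less of its RNA per cell cannot be told apart. An antisense gene, ALDH1A3-AS1, overlaps it and has no row in the table, and whether counting used strand is not given in the sources used here.

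ALDH1A1 (ENSG00000165092; chr9:72900671-72953053), the cytosolic enzyme of the same substrate that marks stem-like cells of many tissues, was listed at 0 in all 8 libraries. At this depth 3 counts would have been 0.260 to 0.354 CPM, which is the limit that a count of 0 allows in a library. Such limits cover counting error only. ALDH1A2, the remaining retinaldehyde dehydrogenase, had at most 0.301 CPM, an estimated 3 counts, in any library. ALDH1A3 was thus the gene of this subfamily with measurable signal in these cells in both groups.

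The 27 bases before the transcript starts of ALDH1A1 and ALDH1A3 are shown because the former was at 0 and the latter was the tested member that changed most. They are from RefSeq (GRCh38.p14), 5′ to 3′ in the direction of the gene, with each CpG dinucleotide in capitals. ALDH1A1 lies on the minus strand (chr9:72953054-72953080) and ALDH1A3 on the plus strand (chr15:100879804-100879830), where the annotation places the end of a predicted gene, LOC124903575, at base 100879803.
ALDH1A1: aaaggaacaaataaagccaagtgctct
ALDH1A3: aaagCGgCGgggagctgccacccCGgg
The CpG number 3 in the stretch of ALDH1A3 and 0 in that of ALDH1A1. Over the 250 bases before the start, ALDH1A3 had 38 CpG and a GC content of 82.4%, and 96.7% of 35116 RefSeq promoters had fewer CpG. ALDH1A1 had 6 CpG and a GC content of 38.4% over the same length, against a median of 11 CpG and 58.0% for all promoters. For ALDH1A1, 38.1% of promoters had fewer CpG. ALDH1A2, which was near 0 as well, had 33 CpG and a GC content of 72.8% in its first promoter. Its second promoter had 1 CpG and a GC content of 41.6%. Methylation was not measured, and these counts describe the sequence only.

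Of the 5 members placed in mitochondria alone, 4 were tested and 4 were lower, where 37.2% of all genes tested were lower. ALDH7A1, found in cytosol and mitochondria, was not called. ALDH1B1 (ENSG00000137124; chr9:38392702-38398661), a mitochondrial enzyme that oxidizes acetaldehyde and other short aldehydes, was at 78.9, 83.8, 80.9 and 88.6 CPM in low and at 40.6, 35.5, 35.4 and 36.0 CPM in high glucose. The first library of high glucose stood above the rest of its group, and the groups did not overlap. Means of 83.0 ± 4.18 and 36.9 ± 2.52 CPM gave a log2 fold change of -1.15 (SE 0.0582, limma adjusted p = 7.27e-11).

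ALDH6A1 (ENSG00000119711; chr14:74056847-74084453), the methylmalonate semialdehyde dehydrogenase of valine and thymine breakdown, was at 38.2, 33.6, 36.2 and 37.1 CPM in low and at 16.2, 17.3, 15.7 and 19.6 CPM in high glucose. All libraries of high glucose were below all of low glucose. Its mean dropped to 17.2 ± 1.72 from 36.2 ± 1.96 CPM (a log2 fold change of -1.03, SE 0.0786, limma adjusted p = 9.06e-09). BBOF1, a gene that overlaps ALDH6A1, was at 8.90 ± 0.846 and 6.50 ± 0.513 CPM (log2 fold change -0.40), and the reads of overlapping genes cannot be told apart without strand.

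ALDH18A1 (ENSG00000059573; chr10:95605941-95656711) makes pyrroline-5-carboxylate from glutamate, the first steps of proline synthesis. It was at 130, 118, 119 and 127 CPM in low and at 80.6, 77.6, 77.0 and 76.4 CPM in high glucose, and the groups lay apart. The means were 124 ± 5.94 and 77.9 ± 1.87 CPM (a log2 fold change of -0.66, SE 0.0447, limma adjusted p = 2.35e-09).

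ALDH4A1 (ENSG00000159423; chr1:18871430-18902555) oxidizes pyrroline-5-carboxylate's open form back to glutamate, in proline breakdown. It was at 24.5, 25.6, 25.1 and 28.7 CPM in low and at 20.5, 21.1, 16.7 and 17.9 CPM in high glucose. The highest library of high glucose was still below the lowest of low glucose, by the smallest gap among the called members that fell. Its mean went from 26.0 ± 1.89 to 19.1 ± 2.09 CPM (log2 fold change -0.43, SE 0.0868, limma adjusted p = 3.53e-04), and with the columns rescaled to equal totals the change was -0.20 with an adjusted p of 0.0491.

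ALDH2 (ENSG00000111275; chr12:111766933-111817532), the mitochondrial enzyme that clears acetaldehyde from ethanol, was near 0. It was listed at 0, 0, 0.108 and 0.236 CPM in low and at 0, 0, 0.191 and 0 CPM in high glucose, an estimated 0 to 2 counts per library. Both groups are under the limit of 3 counts per library, and ALDH2 was not tested.

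Outside the mitochondria, ALDH9A1 (ENSG00000143149; chr1:165662216-165698562), the cytosolic enzyme that oxidizes aminoaldehydes in the synthesis of carnitine and gamma-aminobutyrate, was at 137, 137, 131 and 138 CPM in low and at 95.1, 90.2, 89.3 and 91.9 CPM in high glucose. The libraries of each group were close together and the groups did not overlap. The mean dropped to 91.6 ± 2.53 from 136 ± 3.37 CPM (a log2 fold change of -0.56, SE 0.0400, limma adjusted p = 4.17e-09).

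ALDH3A2 (ENSG00000072210; chr17:19648136-19677596), the fatty aldehyde dehydrogenase of microsomal and peroxisomal membranes, was the member that rose. It was at 27.6, 32.0, 31.7 and 29.5 CPM in low and at 46.1, 44.2, 48.9 and 46.7 CPM in high glucose. Each library of high glucose exceeded each of low glucose. The mean went from 30.2 ± 2.10 to 46.5 ± 1.93 CPM, 1.54-fold higher (log2 fold change 0.61, SE 0.0633, limma adjusted p = 3.78e-07).

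ALDH7A1 (ENSG00000164904; chr5:126541841-126595219), which acts in lysine breakdown and is found in cytosol and mitochondria, did not pass the test. It was at 134.8, 132.9, 141.6 and 139.5 CPM in low and at 127.8, 129.2, 136.0 and 141.0 CPM in high glucose, and the groups overlapped. The log2 fold change was -0.04 (SE 0.0427, limma adjusted p = 0.410), with a 95% interval from -0.13 to 0.05. With the columns rescaled to equal totals it was 0.20, called as higher (limma adjusted p = 7.84e-04), so that its direction depends on the scaling. A total of 4 pseudogenes of ALDH7A1 are annotated and have no row in the table.

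**Figure D2:**
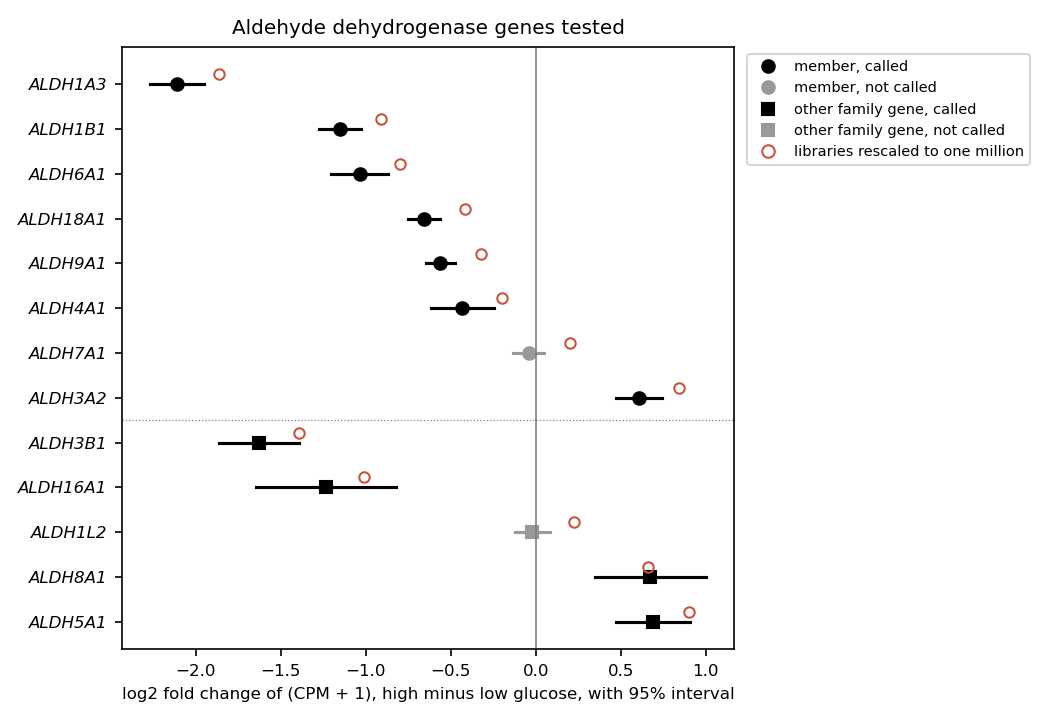
Log2 fold change of CPM + 1 (x axis, high minus low glucose) with its 95% interval for the 13 aldehyde dehydrogenase genes tested, black where called and grey where not. Open red circles give the value with the columns rescaled to equal totals, which lies to the right for 12 of the genes and turns ALDH7A1 and ALDH1L2 positive.

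The columns of the table summed to 1205567 to 1229021 in low and 1017015 to 1036274 in high glucose. Rescaling the columns to the same total moved the median of all genes by 0.192 on the log2 scale, and 62.8% instead of 48.9% of the called genes were then higher. The change of ALDH18A1 was then -0.42 and that of ALDH9A1 -0.32, both still called as lower. Ratios within a library do not depend on this choice. The ratio of ALDH1A3 to ALDH7A1 went from 0.557 ± 0.0260 to 0.128 ± 0.0204, and the ratio of ALDH3A2 to ALDH7A1 was 0.220 ± 0.0161 and 0.348 ± 0.0142. The ratio of ALDH1B1 to ALDH7A1 went from 0.605 ± 0.0318 to 0.277 ± 0.0285. The groups did not overlap in any of these 3 ratios.

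**Figure D3:**
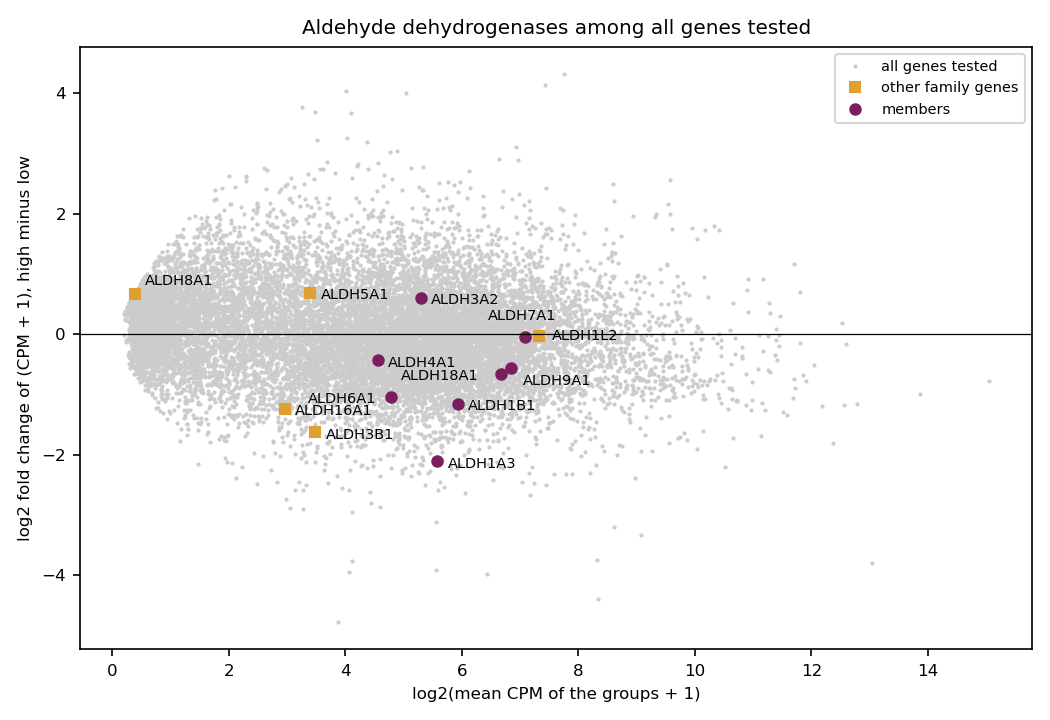
Log2 fold change of CPM + 1 (y axis, high minus low glucose) against the log2 of the mean CPM of both groups + 1 (x axis) for the 15570 genes tested (grey), with the tested members (purple circles) and the other aldehyde dehydrogenase genes (yellow squares). Among the members ALDH1A3 lies lowest at -2.11, and ALDH3A2 is the one above 0, within a wide spread of all genes.

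Levels of different genes were compared per kilobase of the canonical transcript. In low glucose ALDH9A1 was highest at 56.7 ± 1.41 CPM per kilobase, followed by ALDH18A1 at 36.9 ± 1.77, ALDH7A1 at 28.8 ± 0.848, and ALDH1B1 at 27.4 ± 1.38 CPM per kilobase. ALDH1A3 came next, between 21.1 and 23.0 CPM per kilobase. ALDH7A1 and ALDH1B1 overlapped, as did ALDH4A1 at 8.28 ± 0.601 and ALDH3A2 at 8.16 ± 0.568 CPM per kilobase. ALDH6A1 was lowest of the tested members at 6.63 ± 0.360 CPM per kilobase.

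In high glucose ALDH9A1 was still highest at 38.3 ± 1.06 CPM per kilobase, and ALDH7A1 came next at 28.0 ± 1.30, above ALDH18A1 at 23.2 ± 0.558. ALDH3A2 at 12.6 ± 0.520 and ALDH1B1 at 12.2 ± 0.832 CPM per kilobase overlapped, and so did ALDH4A1 at 6.07 ± 0.667 and ALDH1A3 at 4.90 ± 0.574. As a share of the summed levels per kilobase, ALDH1A3 went from 11.3% ± 0.350 to 3.82% ± 0.452 and ALDH7A1 from 14.8% ± 0.503 to 21.8% ± 1.15. With coding length in place of transcript length ALDH7A1 was the highest member in high glucose at 82.6 ± 3.83 CPM per kilobase, so the order depends on the length used. The summed CPM of the 10 members went from 648 ± 13.0 to 440 ± 5.63. The size of this fall depends on the scaling, since the column totals were lower in high glucose. As a share of the column total, the members went from 0.0534% ± 0.000901 to 0.0429% ± 0.000599.

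**Figure D4:**
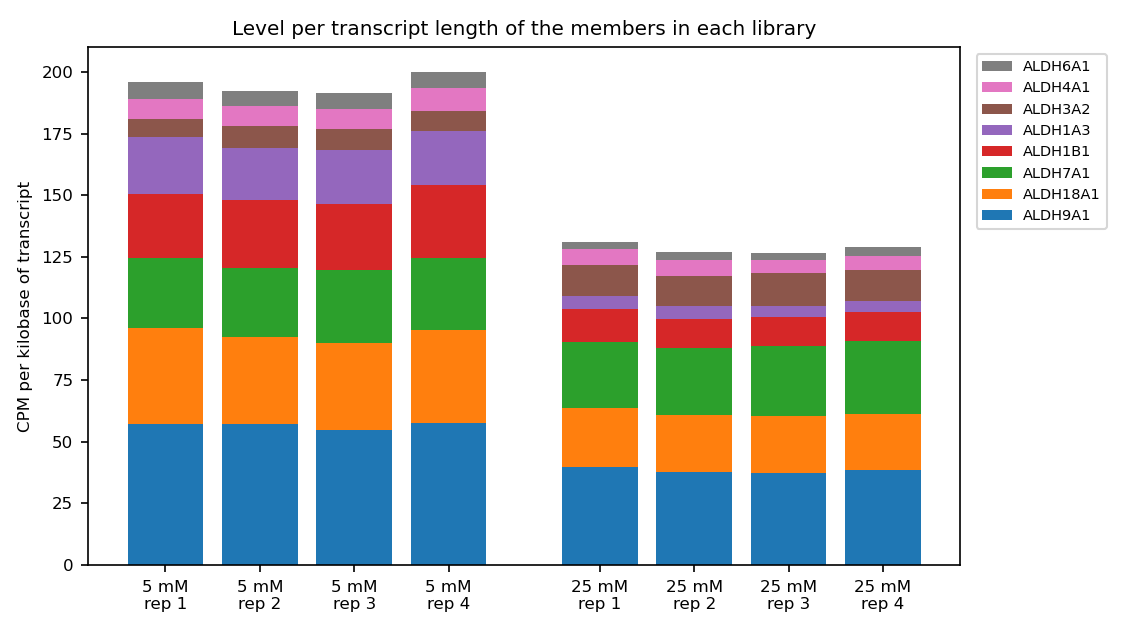
Stacked bars of CPM per kilobase of canonical transcript (y axis, from 0) for the 8 members with measurable signal in each of the 8 libraries, without error bars because each bar is one library. ALDH9A1 is the largest segment in each bar, and the segment of ALDH1A3 shrinks from 11.3% to 3.82% of the total between the groups.

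The promoter table held entries for 9 of the 10 members, all but ALDH2. A set of 3 motifs was searched on both strands from 250 bases before to 50 after the start. The C/EBP-ATF composite TGATGNAA, in 3.62% of all promoters, and the antioxidant response motif TGACNNNGC, in 13.3%, had no match in the members. The E-box CACGTG, in 7.26% of all promoters, matched in ALDH18A1 at base -136 and in the second promoter of ALDH3A2 at base -47. The stretch of ALDH18A1 is shown with the E-box in capitals (chr10:95656822-95656867, minus strand).
ALDH18A1: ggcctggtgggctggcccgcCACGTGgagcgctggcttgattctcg
Of the 6 members that fell, ALDH18A1 alone held the E-box, and ALDH3A2, the member that rose, held it too. A match is a description of the letters and says nothing of binding.

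A further 9 aldehyde dehydrogenase genes have a row in the table, and 5 were tested, of which 2 were higher, 2 lower and 1 not called. Of all genes tested, 35.7% were higher and 37.2% lower. ALDH3B1, which oxidizes lipid-derived aldehydes, fell from 15.9 ± 1.52 to 4.48 ± 0.421 CPM (log2 fold change -1.63, limma adjusted p = 2.23e-09). ALDH16A1, a member of the family thought to lack enzyme activity, went from 9.90 ± 2.93 to 3.64 ± 1.27 CPM (log2 fold change -1.23, limma adjusted p = 3.09e-05). ALDH5A1, the succinate semialdehyde dehydrogenase, rose from 7.09 ± 0.630 to 12.0 ± 0.592 CPM (log2 fold change 0.69, limma adjusted p = 1.84e-05). GPLD1, which overlaps ALDH5A1, was at 0.706 ± 0.262 and 3.44 ± 0.238 CPM.

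ALDH8A1, an enzyme of tryptophan breakdown, was listed at 0 in the 4 libraries of low glucose and at 0.347, 0.601, 0.954 and 0.540 CPM in those of high glucose, 26 estimated counts in all. Against 3 counts over the whole low group, 0.0842 CPM, it was at least 7.25-fold higher. It passed the filter only through the libraries of high glucose, so its call as higher, counted above, supports nothing. Its fitted log2 fold change is no bound and ranged from 0.17 to 3.45 over the settings run. ALDH1L2, the mitochondrial formyltetrahydrofolate dehydrogenase, was at 160 ± 8.69 and 158 ± 8.66 CPM (log2 fold change -0.02, limma adjusted p = 0.719, 95% interval -0.12 to 0.08). ALDH1L1 did not exceed 0.112 CPM, and ALDH3A1 and ALDH3B2 were listed at 0.

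The genes around the members were followed in 6 lists. The counts of each list stand beside a background of 35.7% higher and 37.2% lower among all genes tested. Proline and glutamate semialdehyde metabolism had 8 tested genes, of which 4 were higher and 4 lower, with a median log2 fold change of -0.10. PYCR1, the mitochondrial reductase that completes proline synthesis after ALDH18A1, fell from 240 ± 10.9 to 67.9 ± 7.42 CPM (log2 fold change -1.81, limma adjusted p = 1.32e-12). OAT, which makes glutamate semialdehyde from ornithine, rose from 108 ± 5.66 to 182 ± 5.95 CPM (log2 fold change 0.75). The ratio of PYCR1 to ALDH18A1 within a library went from 1.95 ± 0.153 to 0.872 ± 0.0892.

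Of 18 tested genes of retinoid metabolism and retinoic acid signalling, 8 were higher, 4 lower and 6 not called, with a median of 0.09. CYP26B1, which degrades retinoic acid, rose from 0.617 ± 0.0554 to 4.22 ± 0.818 CPM (log2 fold change 1.68, limma adjusted p = 5.73e-08). RDH10, which makes retinal, the substrate of ALDH1A3, rose from 12.6 ± 1.42 to 24.7 ± 0.533 CPM (0.92), and the receptor RARB from 20.6 ± 1.62 to 36.7 ± 2.42 CPM (0.80). The carrier RBP4 (-0.02, adjusted p = 0.916) and the receptor RXRB (-0.07, adjusted p = 0.437) did not pass the limma test.

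Among 26 tested genes of branched-chain amino acid degradation, the pathway of ALDH6A1, 9 were higher, 14 lower and 3 not called, with a median of -0.12. PCCB, a subunit of propionyl-CoA carboxylase, fell from 111 ± 8.52 to 32.6 ± 2.61 CPM (log2 fold change -1.74, limma adjusted p = 2.72e-12), BCKDHA fell by 1.43 and MMUT, methylmalonyl-CoA mutase, by 0.84 on the log2 scale. MCCC1, of leucine breakdown, rose by 0.90 on that scale. IVD (0.00, adjusted p = 0.986) and ACAD8 (0.02, adjusted p = 0.873), both acyl-CoA dehydrogenases, did not pass the limma test. The rescaled libraries gave 13 higher and 10 lower in this list, so its balance turns with the scaling.

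Lysine degradation and carnitine synthesis, the pathways of ALDH7A1 and ALDH9A1, had 11 tested genes, of which 3 were higher, 4 lower and 4 not called (median -0.11). AASS, the first enzyme of lysine breakdown, rose by 0.99 and SHMT1 by 0.63 on the log2 scale, whereas TMLHE, the first enzyme of carnitine synthesis, fell from 38.8 ± 2.28 to 18.8 ± 1.09 CPM (limma adjusted p = 3.03e-09) and AASDHPPT fell by 0.47. AASDH (-0.06, adjusted p = 0.601) and AADAT (0.07, adjusted p = 0.596) did not pass the limma test.

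Fatty aldehyde and sphingolipid breakdown, the setting of ALDH3A2, had 11 tested genes, of which 2 were higher, 4 lower and 5 not called (median -0.12). FAR1, which makes fatty alcohols, rose from 74.9 ± 3.81 to 172 ± 3.35 CPM (log2 fold change 1.19, limma adjusted p = 2.17e-12) and SGPP1 by 0.43 on the log2 scale. HACL1, the lyase of fatty acid alpha-oxidation, fell by 1.19 and the peroxisomal import receptor PEX5 by 0.86. FAR2 (-0.03, adjusted p = 0.661) and SPHK1 (-0.09, adjusted p = 0.336) did not pass the limma test. In the rescaled libraries the list gave 3 higher and 3 lower.

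The alcohol dehydrogenases and other aldehyde-metabolizing enzymes had 17 tested genes, of which 6 were higher, 6 lower and 5 not called (median -0.08), and 9 were higher and 4 lower in the rescaled libraries. AOX1, an oxidase that also oxidizes retinal, rose from 9.06 ± 0.604 to 51.6 ± 2.67 CPM (log2 fold change 2.39, limma adjusted p = 3.41e-13). ESD, the S-formylglutathione hydrolase, fell by 1.19, the aldo-keto reductase AKR1C1 by 1.08 on the log2 scale, and the aldehyde reductase AKR1A1 from 121 ± 6.41 to 60.0 ± 3.48 CPM. AKR1C2 (-0.08, adjusted p = 0.721) and ADH6 (-0.11, adjusted p = 0.539) did not pass the limma test. AKR1C1 and AKR1C2 are close copies, between which counting can split reads.

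**Figure D5:**
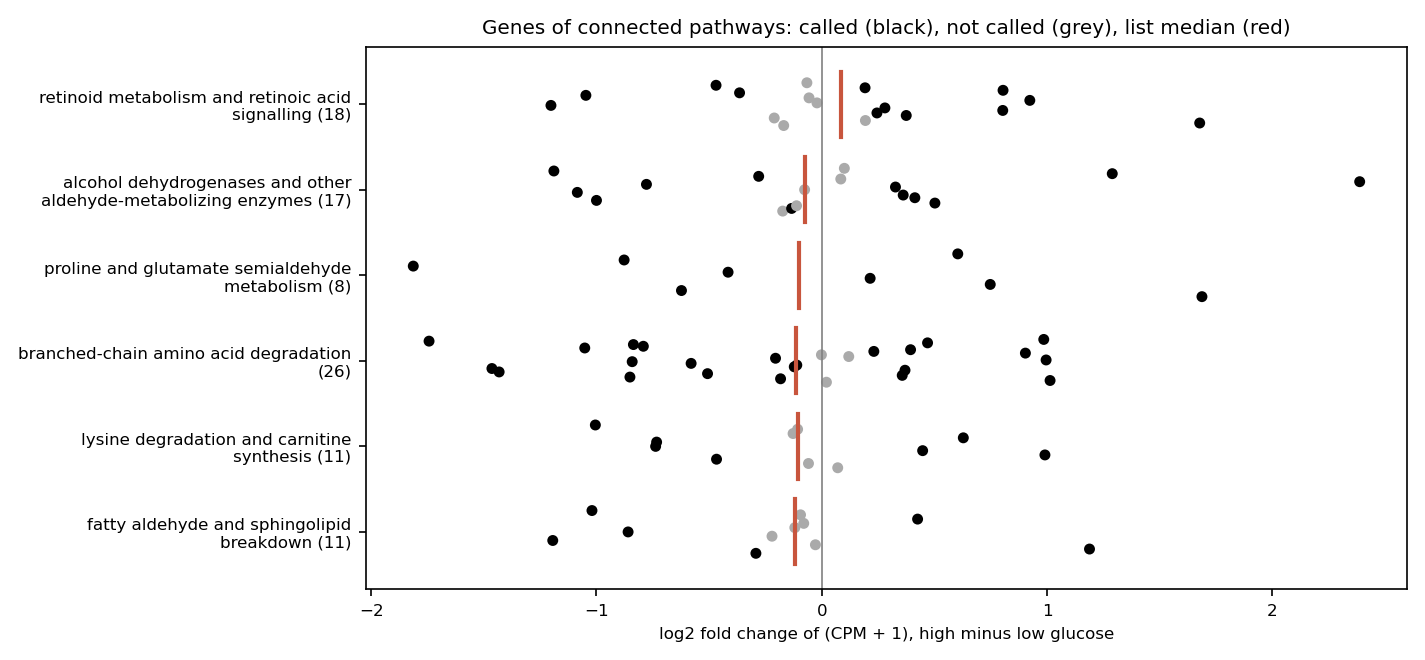
Log2 fold change of CPM + 1 (x axis, high minus low glucose) of each tested gene in the 6 lists (rows, number tested in parentheses), black where called and grey where not, with the list median in red. Genes of each list lie on both sides of 0 and the medians range from -0.12 to 0.09.

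As a description of likeness, the genes outside the family with the highest Pearson correlation to ALDH1A3 over the 8 libraries were FHL2 (r = 0.9993), KAT5 (r = 0.999) and RPL3 (r = 0.9989), and 3204 genes exceeded 0.95. For ALDH7A1, the member with the smallest change, they were PRRC2C (r = 0.970), SMCHD1 (r = 0.969) and HP1BP3 (r = 0.947). The points share 8 libraries in 2 groups.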

How the data were processed

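Hs578T cells were sampled 48 hours after the switch to 5 mM or 25 mM glucose, with 4 libraries per group as the treatment labels give them. Whether the replicates are independent cultures is not labelled, and p values then reflect library-to-library spread, which may be technical. The authors deposited 1 table of normalized signal for 21077 genes, read here as CPM with TMM factors from the methods of the study and the submitters' processing notes, which name edgeR and hg38. Those methods name other cultured lines and not cultured Hs578T, so this reading is an inference. For the patient tumors, the methods of the study name Tophat as the aligner, an earlier human genome build and a stranded library kit. Whether these apply to the Hs578T libraries is not stated, and no counter or strand setting of the counting is named. The value of 1 read was the most frequent positive value of a column. Of values below 50 reads, 71.3% to 73.7% were whole within 0.005 read, so the main test used no count model. Estimated counts were fitted, with voom, only as an alternative setting. No libraries were alike within sampling noise (chi-square per gene 1.60 to 5.74 within and 103 to 130 between groups).

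The test was limma 3.58.1, run in R 4.3.3 on log2(CPM + 1) and using a variance trend, for genes of at least 0.5 CPM in at least 2 libraries, with Benjamini-Hochberg adjustment over 15570 genes. The fit was tested on simulated data. Named genes were the 10 members, the other family genes and, from each list, up to 4 called genes by smallest p and up to 2 not called by largest p, of which some are not reported here. Likeness was the Pearson correlation of log2(CPM + 1). The members and lists were chosen with earlier results of these data known. Positions and promoters are RefSeq GRCh38.p14, the assembly of hg38. Lengths are of GENCODE canonical transcripts. Alternatives covered the pseudocount, filter, scaling, variance model, replicate block and each library left out.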

Additional observations from a re-analysis of the deposited data

Results flagged for a closer look

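A total of 6 among 30 combinations of a gene and a group held a library far from the rest (by Dixon's ratio, the gap over the range). Chance flags about 1 in 20 for continuous values, a rate that does not apply to the genes near 0. ALDH1B1 was at 40.6 CPM in the first library of high glucose, against 35.4 to 36.0 CPM in the others (ratio 0.883). ALDH9A1 was at 130.7 CPM in the third library of low glucose, against 137.3 to 137.6 CPM in the others (ratio 0.953). ALDH16A1 was at 14.3 CPM in the second library of low glucose, against 8.19 to 8.78 CPM in the others (ratio 0.904). For genes near 0, ALDH2 was at 0.191 CPM in the third library of high glucose, ALDH1A2 at 0.118 CPM in the fourth and ALDH1L1 at 0.112 CPM in the second library of low glucose, with the others of their group at 0, an estimated 1 to 2 counts each. With the others at 0 the ratio is 1.0 for any positive value. The calls of ALDH1B1, ALDH9A1 and ALDH16A1 held without each of these libraries.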

How the results depend on the processing

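The 7 called members kept their direction and their call in all 18 settings run. ALDH1A3 ranged from -2.17 to -1.87, ALDH1B1 from -1.20 to -0.91 and ALDH3A2 from 0.55 to 0.84 on the log2 scale. ALDH6A1 ranged from -1.095 to -0.796. The highest limma adjusted p among the called members was 0.0491, for ALDH4A1 in the rescaled libraries. With the libraries rescaled to equal totals, 2 members were called higher instead of 1, because ALDH7A1 was at 0.203. ALDH7A1 was at 0.0629 under quantile normalization (limma adjusted p = 0.1949), and between -0.0666 and -0.0194 with a library left out. Rescaling also reversed ALDH1L2 (0.223), RBP4 (0.102), RXRB (0.175), AKR1C2 (0.0744), ADH6 (0.0624), IVD (0.232), AASDH (0.160), FAR2 (0.209) and SPHK1 (0.143), none of which was called in the report, and it called ALDH1L2, RXRB, IVD, FAR2 and AADAT (0.280) as higher. Quantile normalization reversed ALDH1L2 (0.0620), RXRB (0.0282), IVD (0.101), FAR2 (0.0704) and SPHK1 (0.00631), which stayed uncalled. Leaving out a library in turn moved uncalled values across 0, with ranges of -0.0572 to 0.00240 for ALDH1L2, -0.180 to 0.0798 for RBP4, -0.125 to 0.00132 for RXRB, -0.217 to 0.0547 for AKR1C2, -0.203 to 0.0115 for ADH6, -0.0469 to 0.0430 for IVD and -0.0455 to 0.0833 for ACAD8. With a filter of 5 CPM in 4 libraries ALDH8A1 was not tested, and 1 other family gene was called higher.

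The deviations of libraries with the same replicate number correlated weakly or not at all (-0.0267 to 0.112). Still, 4 of 8 libraries correlated best with their own number. Whether libraries of the same number share more than that number was not tested further. The replicate block gave 5602 higher and 5892 lower genes against 5553 and 5797, and the same calls for the members. At this depth ALDH1A1 and ALDH2 lie under the limit of 3 counts, and no change in them was detectable.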
